A study of Mus musculus with 2 samples.

Results

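The genes described here are 8 cyclins and 2 cyclin-dependent kinases (CDKs) of the cell division cycle: the G1 cyclins Ccnd1, Ccnd2 and Ccnd3, the G1/S and S phase cyclins Ccne1, Ccne2 and Ccna2, the mitotic cyclins Ccnb1 and Ccnb2, and the kinases Cdk2 and Cdk4. They were chosen by the gene name printed in both scanner files, a rule that uses no measured value, although it was drawn up with earlier results of these data known. They are 10 of 20065 genes measured. The tumours came from Panc02, a mouse pancreatic carcinoma cell line, injected under the skin of C57BL/6 mice. The animals were assigned at random at 3 weeks of age to standard or enriched housing, and tumours were taken 5 weeks after the injection. Every mouse of both groups carried the same cell line, and housing was the only labelled difference. The labels call the tissue a xenograft, although line and host are both mouse, and a tumour grown under the skin also holds cells of its host. Tumour RNA of 6 mice was combined into 1 pool per housing, and each pool was read on 1 array, so no value has a spread between mice and the housings are compared without a test.

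Cyclins are the regulatory subunits that switch CDKs on, and many of them appear and vanish once per cell division. D-type cyclins bind Cdk4 and Cdk6 during G1 and begin the phosphorylation of the retinoblastoma protein, which frees E2F transcription factors. E-type cyclins and cyclin A2 then act with Cdk2 to start and sustain DNA replication, and B-type cyclins act with Cdk1 to drive mitosis. Cyclin D1 and Cdk4 are well-known growth-promoting genes in carcinomas.

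A level is a probe's log2 processed intensity less the array's 75th percentile. A difference is that level in the enriched environment pool minus that in the standard one. Levels of different probes are not comparable, since probes differ in how well they bind. The 10 genes were read by 17 probes on 26 spots, all well above background on both arrays, and 0 of these spots carried an outlier mark.

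All 10 genes had a higher level in the enriched environment pool, beside 51.9% of all genes measured, and 0 of 10 were 2-fold apart, beside 15.3% of all genes (5.76% higher and 9.57% lower by that much). With a different background correction, limma's normexp, Cdk2 changed direction and 9 of 10 were higher. The median difference of the 10 genes was 0.38, or 1.30-fold, against 0.03 for all genes. Differences ran from 0.06 for Ccnd3 to 0.88 for Ccnb1. At the level of single probes, 17 of 17 were higher, beside 54.0% of all probes. Of these probes 0 were 2-fold apart, beside 14.4% of all probes (5.55% higher and 8.88% lower). The middle of the distribution of all genes, from its 25th to its 75th percentile, ran from -0.40 to 0.38, and 5 of the 10 genes lay above it, namely Ccnb1, Ccnd1, Cdk4, Ccnb2 and Ccnd2.

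The technical spread sets which of these differences can be read. Over 6917 genes with several probes, the SD of the difference between a gene's probes had a median of 0.18. The median SD over repeated spots of 1 probe was 0.05 for standard and 0.06 for enriched housing. The scanner software's own error for a difference was about 0.20 for bright member probes and up to 0.33 for the dimmest. Ccnd3 at 0.06 lay inside the first of these spreads, while Ccnb1 at 0.88 exceeded each of them. None of these spreads covers variation between mice.

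**Figure D1:**
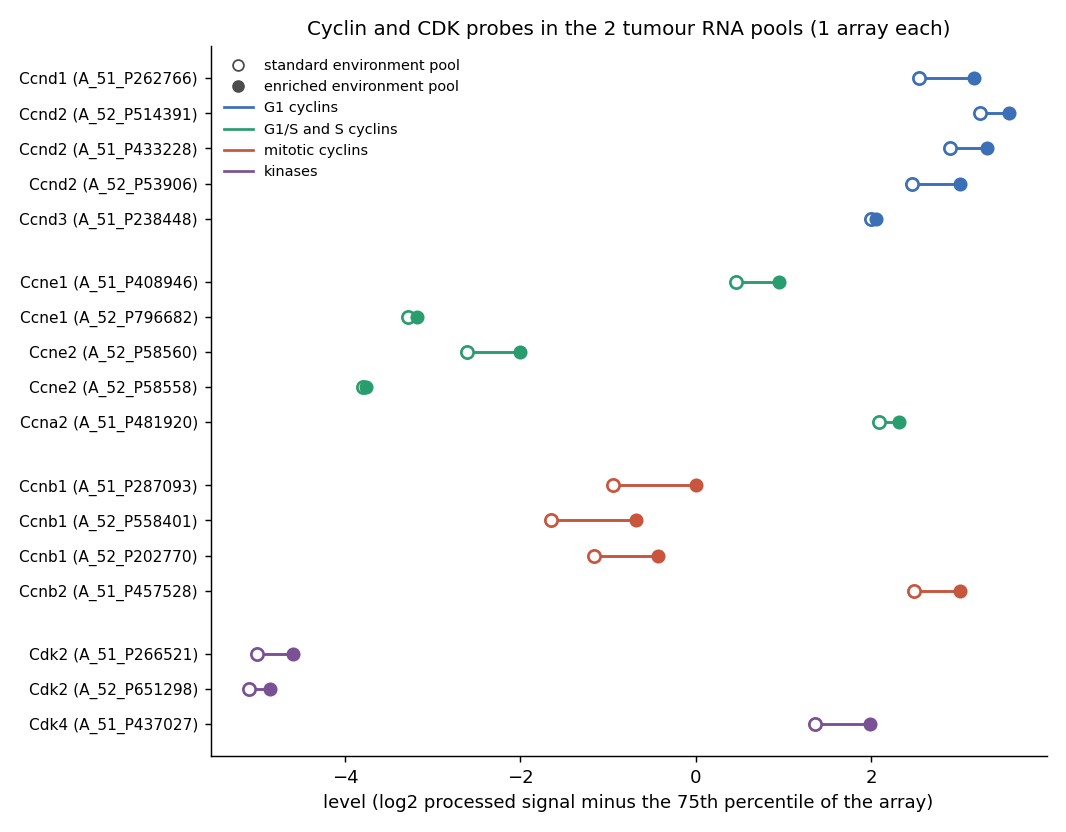
Level of each of the 17 probes (log2 processed signal minus the 75th percentile of the array, horizontal axis) in the standard (open circle) and enriched (filled circle) environment pool, 1 array each, coloured by class. Each filled circle lies to the right of its open circle, by 0.04 to 0.97, and levels should be compared along a row, not between rows.

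Among the G1 cyclins, Ccnd1 and Ccnd2 were higher in the enriched environment pool and Ccnd3 was nearly level. Ccnd1 encodes cyclin D1, the D-type cyclin most often raised in carcinomas. Its probe was printed 10 times on each array, at chr7_random:7568179-7568238 on the mm7 build (a part of chromosome 7 with no fixed place there). Probe positions here and below are those printed in the files on mm7, and whether they lie in coding sequence or a UTR was not analysed here. Over the 10 spots the standard environment level had a lowest value of 2.48, a median of 2.54 and a highest value of 2.61. In the enriched environment pool the same 10 spots had a lowest value of 3.10, a median of 3.17 and a highest value of 3.28. The difference was 0.64, or 1.55-fold, with spot SDs of 0.03 and 0.05. Over the 189 measured probes with repeated spots the median SDs were 0.05 and 0.06, so such close spots are not particular to Ccnd1. The repeated spots of Ccnd1 share 1 RNA pool on each array and describe the precision of the reading alone.

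Ccnd2 encodes cyclin D2, and its 3 probes agreed in direction. The probe at chr6:127154070-127154129 was at 3.24 under standard and 3.57 under enriched housing. That at chr6:127163669-127163728 was at 2.90 and 3.32, and that at chr6:127173178-127173237 at 2.46 and 3.01. Their mean difference was 0.43 (SD between probes 0.11, n = 3 probes), or 1.35-fold. Ccnd3, which encodes cyclin D3, was read by 1 probe at chr17:45735858-45735917 and was at 1.99 and 2.05, a difference of 0.06 that lies within the spread between probes. The 3 D-type cyclins therefore ranged from 0.06 to 0.64, a wider range than in either other cyclin class.

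The G1/S and S phase cyclins had mean differences of 0.23 to 0.32, but the probes of both E-type cyclins disagreed on the size. Ccne1, which encodes cyclin E1, was read by 2 probes that the files place at the same position, chr7:34990690-34990713. The brighter was at 0.45 under standard and 0.95 under enriched housing, which differ by 0.49. The dimmer was at -3.28 and -3.17, a difference of 0.11. Both probes were thus higher in the enriched environment pool but by unlike amounts, and their mean of 0.30 had an SD of 0.27.

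Ccne2, which encodes cyclin E2, showed the same disagreement. The probe designed on transcript variant 2, at chr4:11130171-11130230, was at -2.61 and -2.01, a difference of 0.60. That on variant 1, at chr4:11130287-11130346, was at -3.79 and -3.76, a difference of 0.04. The mean of 0.32 had an SD of 0.40 between these probes, which exceeds the mean itself, and with normexp the mean was 0.077, so the size of the Ccne2 difference is not settled by this array. Ccna2 encodes cyclin A2, which partners Cdk2 in S phase and Cdk1 later. Its 1 probe, at chr3:36375837-36375896, was at 2.08 and 2.31, and the difference of 0.23 was close to the software's error of 0.20.

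Ccnb1 and Ccnb2, the cyclins that carry cells into mitosis, had higher levels with enriched housing, by 0.88 and 0.52. Ccnb1 encodes cyclin B1, and each of its 3 probes had a difference of at least 0.73. The probe at chr13:97884622-97884681 was at -0.94 and 0.01, a difference of 0.95. That at chr13:97885016-97885075 was at -1.66 and -0.68, a difference of 0.97, and that at chr13:97885282-97885341 at -1.15 and -0.43, a difference of 0.73. The mean of 0.88 (SD between probes 0.14, n = 3 probes) is 1.84-fold, the largest among the 10 genes, and lay at the 92.6th percentile of all genes. Ccnb2, which encodes cyclin B2, was at 2.48 and 3.01 on its 1 probe, at chr9:70439814-70439873, a difference of 0.52 or 1.44-fold.

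The promoters of these mitotic cyclins are shown because the pair lay highest as a class and because both windows hold more than 1 CCAAT box, the binding motif of the transcription factor NF-Y. The sequences are the 250 bases before the annotated start, read 5′ to 3′ on the gene's own strand from RefSeq on GRCm38.p6, with CCAAT on either strand in capitals.
Ccnb1, chr13:100786487-100786736, minus strand: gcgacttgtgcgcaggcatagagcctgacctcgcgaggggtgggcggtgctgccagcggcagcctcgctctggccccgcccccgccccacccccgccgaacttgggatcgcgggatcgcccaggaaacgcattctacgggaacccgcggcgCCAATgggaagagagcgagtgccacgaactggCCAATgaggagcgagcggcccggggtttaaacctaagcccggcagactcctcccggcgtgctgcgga
Ccnb2, chr9:70421555-70421804, minus strand: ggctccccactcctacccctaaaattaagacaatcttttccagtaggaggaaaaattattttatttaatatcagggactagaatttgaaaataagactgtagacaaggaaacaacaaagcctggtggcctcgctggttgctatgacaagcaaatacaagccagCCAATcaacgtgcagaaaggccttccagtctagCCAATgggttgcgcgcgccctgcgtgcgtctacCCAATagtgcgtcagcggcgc

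The Ccnb1 window held 2 CCAAT boxes, beginning 99 and 67 bases before the start. The Ccnb2 window held 3, beginning 87, 54 and 21 bases before it. Of 32851 promoter windows of this length in the table, 33.8% held at least 1 CCAAT, 10.1% at least 2 and 2.79% at least 3. Ccnb2 also held 1 match to TTTGAA, the letters of the CHR element of cell cycle genes, 167 bases before the start, as did 16.0% of windows. These matches describe the letters of the windows and were not linked to the arrays' values.

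The kinases were higher by 0.62 for Cdk4 and 0.33 for Cdk2. Cdk4, the kinase of the D-type cyclins, was at 1.36 and 1.99 on its 1 probe, at chr10:126562389-126562448, which is 1.54-fold. Cdk2, the kinase of cyclins E and A, was dim on both probes. The probe on variant 2, at chr10:128199926-128199985, was at -5.00 and -4.59, and that on variant 1, at chr10:128205529-128205588, at -5.10 and -4.85. The lowest level that still counted as well above background was -5.68 for standard and -6.20 for enriched housing, and Cdk2 lay near it. The direction of Cdk2 was not settled, because its difference of 0.33 became -0.14 with the normexp background correction and 0.62 in the authors' deposited table.

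The Cdk4 promoter window is shown for its repeated E-box, CACGTG, a palindrome that the transcription factor Myc and its relatives bind, given in capitals.
Cdk4, chr10:127063285-127063534, plus strand: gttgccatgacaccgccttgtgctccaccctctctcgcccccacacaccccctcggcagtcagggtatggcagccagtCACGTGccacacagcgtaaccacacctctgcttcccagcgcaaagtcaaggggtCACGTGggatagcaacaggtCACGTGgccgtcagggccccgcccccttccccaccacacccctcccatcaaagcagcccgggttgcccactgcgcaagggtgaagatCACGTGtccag

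This window held 4 matches, beginning 172, 118, 98 and 11 bases before the start. At least 1 match was present in 6.02% of the 32851 windows, and 4 or more in 7 windows, or 0.0213%. Promoters were matched for 6 of the 10 genes, Ccnd3 with 2 annotated starts. A gene was counted if any of its windows held the motif, whereas the shares are of single windows. CCAAT was present in 4 of the 6 (Ccnb1, Ccnb2, Cdk2 and, at 1 of its 2 starts, Ccnd3), TTTGAA in Ccnb2 and CACGTG in Cdk4. The GC box GGGCGG was present in 5 of 6, all but Ccnb2, and in 32.7% of windows. The E2F forms TTTCCCGC and TTTGGCGC, both strands searched as for the other motifs, gave 1 match to the first, in Cdk2, with 0.895% and 0.417% of windows holding them.

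**Figure D2:**
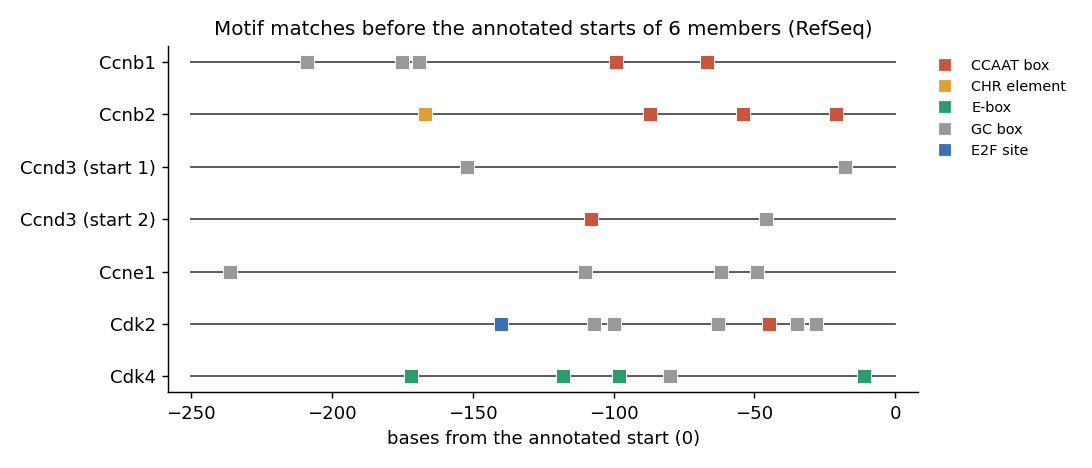
Matches to each motif in the 250 bases before the annotated start (horizontal axis, bases from the start at 0), 1 line per annotated start of the 6 genes with a promoter in the table. Squares mark where a match begins, and Ccnb1, Ccnb2 and Cdk4 show their 2 CCAAT boxes, 3 CCAAT boxes and 4 E-boxes.

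Set side by side, the cyclin classes had median differences of 0.70 for the mitotic, 0.43 for the G1 and 0.30 for the G1/S and S cyclins, against 0.03 for all genes. Gene by gene the mitotic cyclins (0.52 to 0.88) lay above the G1/S and S cyclins (0.23 to 0.32). Probe by probe these classes overlapped, since the lowest mitotic probe was at 0.52 and the highest probe of the G1/S and S class at 0.60. The G1 class overlapped both, with Ccnd1 above Ccnb2 and Ccnd3 below Ccna2. The mitotic median exceeded the G1 median by 0.27 and the G1/S and S median by 0.40. The order of the G1 and the G1/S and S classes depended on the probes: with the brightest probe of each gene the latter exceeded the former by 0.16, where the mean over probes put it below by a difference of -0.13. When Ccna2, which also acts at mitosis, was counted with the B-type cyclins, their excess over the G1 cyclins was 0.091. With 2 or 3 genes in a class and 1 array per pool, these class differences are a description with no test.

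**Figure D3:**
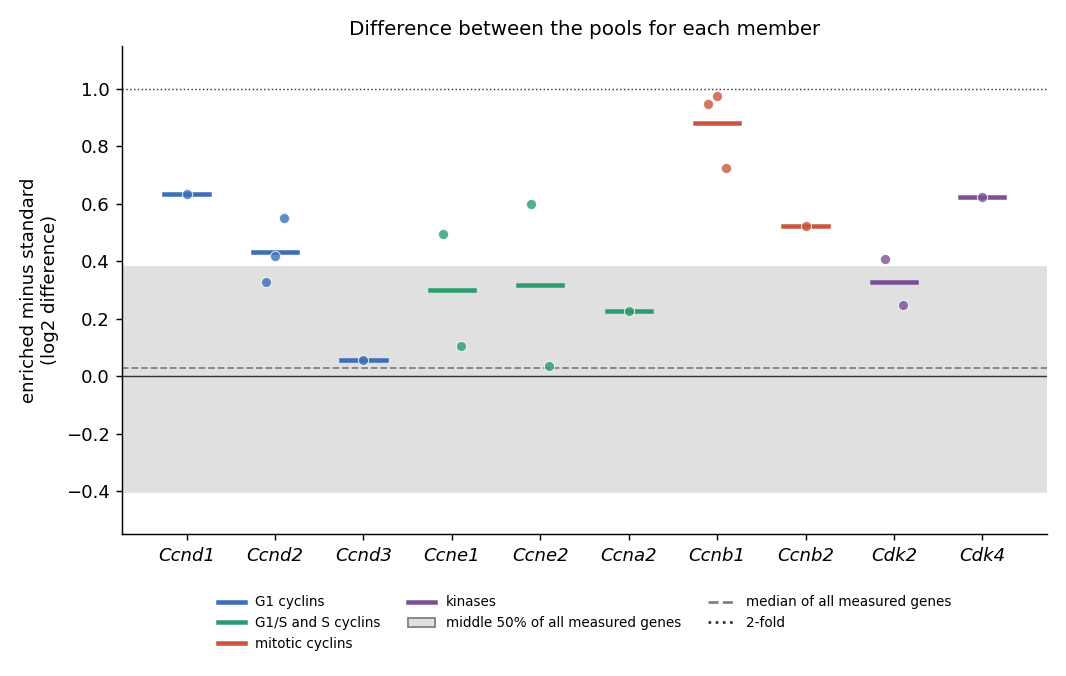
Difference between the pools (enriched minus standard, log2, vertical axis) for each gene, with points for single probes, a bar for their mean, and a grey band for the middle 50% of all genes. The bars of Ccnd1, Ccnd2, Ccnb1, Ccnb2 and Cdk4 lie above the band, and Ccnd3 lies at its centre.

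The partners, inhibitors and regulators of these proteins were examined in lists of their own. Their counts stand beside 51.9% of all genes higher and 15.3% at least 2-fold apart. Among the other cyclins, 8 of 14 measured were higher and 6 lower, near the share of all genes. Their median of 0.12 ran from -0.04 to 0.51 over the processing alternatives. Ccnf, a cyclin that serves as a ubiquitin ligase subunit, differed by 0.89 and Ccnc, a partner of the transcriptional kinase Cdk8, by 0.57. Ccng1, a p53 target, differed by -1.49 (probes from -1.58 to -1.40) and was the only one at least 2-fold apart, and Ccnk, a partner of Cdk12, differed by -0.67. The germline cyclin Ccna1 passed background for standard housing alone, at a level of -5.56, near the lowest that passed there, -5.68. No fold is given for Ccna1, and Ccnb3 was not well above background on either array.

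Of the other CDKs 13 of 17 were higher and 4 lower, beside 51.9% of all genes higher, with a median of 0.21. Cdk6, the alternative kinase of the D-type cyclins, was at -1.17 under standard and 0.09 under enriched housing, and its difference of 1.26 over 3 probes (1.12 to 1.45) alone passed 2-fold. Cdk18 differed by 0.93. Cdk16 differed by -0.61 and Cdk3 by -0.31, the latter at 0.07 without scaling. Cdk1, the partner of the B-type cyclins, differed by 0.83 on 1 of its 2 probes. The other probe passed background for enriched housing alone. Cdk1 is named for its role after its value was seen.

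The CDK inhibitors went both ways, with 4 of 7 measured higher and 3 lower, near the 51.9% of all genes that were higher. Their median was 0.04 (-0.20 to 0.42 over the alternatives). Cdkn1c, which encodes an inhibitor of the Cip/Kip family, was at 0.93 under standard and -3.21 under enriched housing. On its 1 probe this is 17.7-fold lower (-4.14), and the difference ran from -4.17 to -3.53 over the alternatives. Cdkn2d, an inhibitor of Cdk4 and Cdk6, differed by -0.54. In the other direction Cdkn2b, of the same Ink4 family, was at -2.13 and -0.92, a difference of 1.21, which was 0.98 with normexp, and Cdkn1a, an inhibitor induced by p53, differed by 0.73. Cdkn2a passed background for enriched housing alone, and no fold is given.

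The CDK activators and checkpoint kinases were higher in 9 of 9, beside 51.9% of all genes, with a median of 0.58. The count was 7 of 9 with normexp and 8 of 9 with the brightest probe. The list also holds kinases that inhibit CDKs, Wee1 at 0.18 and Pkmyt1 at 0.64, named for their role after their values were seen. Cdc25b, a phosphatase that switches CDKs on, differed by 1.04 (probes from 0.69 to 1.48), and Cks2, a small CDK-binding subunit, by 0.65. In the RB and E2F family 7 of 13 were higher, near the share of all genes, and the median was 0.11 (-0.11 to 0.49 over the alternatives). E2f7 differed by 0.90 and E2f1, an activating member and target of the RB pathway, by 0.75, whereas E2f6, a repressor, differed by -1.10 and Tfdp2, an E2F partner, by -0.82. In the list of cyclin degradation, 15 of 21 were higher, beside 51.9% of all genes, with a median of 0.10. Its extremes were Ube2s at 1.02 and Cdc20 at 0.90, which work with the anaphase-promoting complex, and the complex subunits Anapc5 at -0.62 and Anapc13 at -0.53.

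General proliferation markers were higher in 10 of 10, beside 51.9% of all genes, with a median of 0.69. They were led by Top2a at 0.99 and Aurka at 0.98, genes of DNA untangling and of the mitotic spindle. The median of 0.38 for the 10 cyclin and CDK genes lay between that of the proliferation markers and the 0.24 of 12 reference genes, of which 7 were higher and 5 lower. The reference genes spread from -0.78 for Tfrc to 0.63 for Ywhaz and 0.71 for Hprt1, so differences of the size seen in 9 of the 10 genes also occur among genes chosen as steady.

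**Figure D4:**
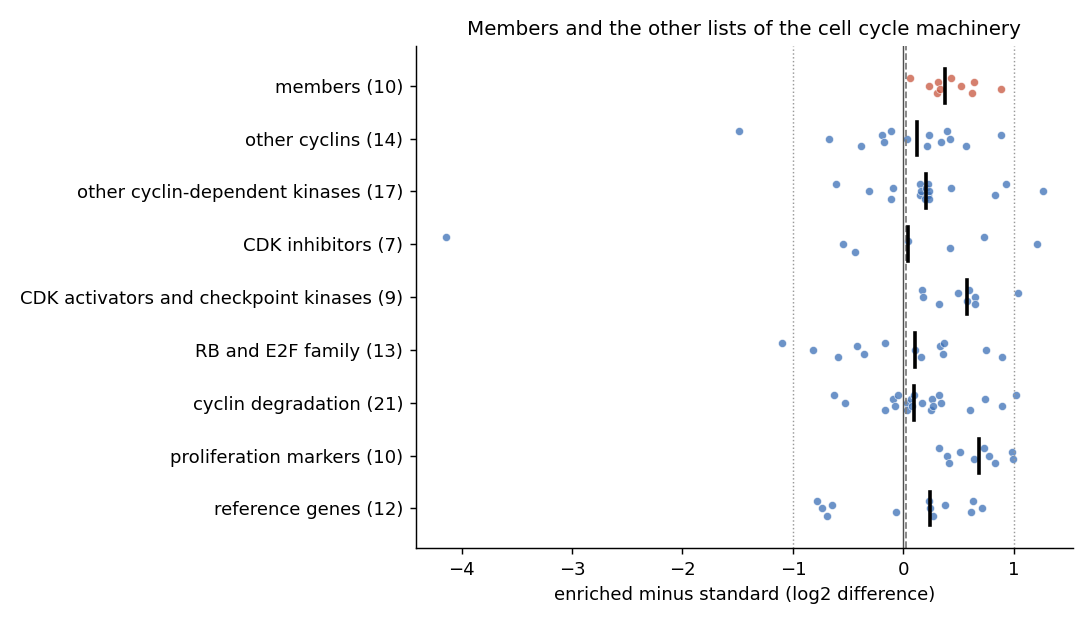
Difference between the pools (enriched minus standard, log2, horizontal axis) for the 10 genes and for each other list, with 1 point per gene, a black bar for the median, dotted lines at 2-fold, a dashed line at the median of all genes and the number measured in brackets. The proliferation markers and the list of CDK activators and checkpoint kinases lie wholly above 0. The list of CDK inhibitors spreads from -4.14 to 1.21.

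Markers of several cell types, the epithelial type of a carcinoma included, moved between the pools beside these values. With enriched housing all 10 skeletal muscle markers were lower by 2-fold or more (median -7.58, from -8.56 to -3.08), beside 9.57% of all genes. Their share of the summed signal of measured probes was 3.94% under standard and 0.0998% under enriched housing, and their summed level on the log2 scale was 11.88 and 6.37. Of 6 erythroid markers the 5 measured were lower, with shares of 0.821% and 0.0173% and summed levels of 9.62 and 3.84. All 7 epithelial markers, including Krt8, Krt18 and Epcam, were measured in both pools. All 7 were 2-fold or more higher with enriched housing (median 2.07), beside 5.76% of all genes. Their shares were 0.205% and 0.893% and their summed levels 7.61 and 9.53. T cell markers were higher in 5 of 8 (median 0.59), macrophage markers in 5 of 7 (median 0.13) and fibroblast markers in 4 of 8. Among all genes 51.9% were higher. Over the alternatives the counts ran from 5 to 7 for T cell, 4 to 7 for macrophage and 4 to 5 for fibroblast markers. The fibroblast median of 0.05 stands for a split, with 3 markers at least 2-fold higher, up to 2.96 for Col3a1, and 3 at least 2-fold lower, down to -1.18 for Pdgfrb, both named after their values were seen. The number at least 2-fold apart, 6 of 8 here, was 4 with normexp and 3 without scaling. Endothelial markers were lower in 6 of 6 (median -0.85), or in 5 of 6 without scaling, with quantile normalization, in the authors' deposited table and with the brightest probe. The muscle and epithelial markers were all detected in both pools. The part of these tissue differences in the cyclin and CDK values was not tested, and in pooled tumour RNA fewer cells of a type and less RNA per cell cannot be told apart. All spots together were well above background in 77.2% and 77.4% of cases.

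**Figure D5:**
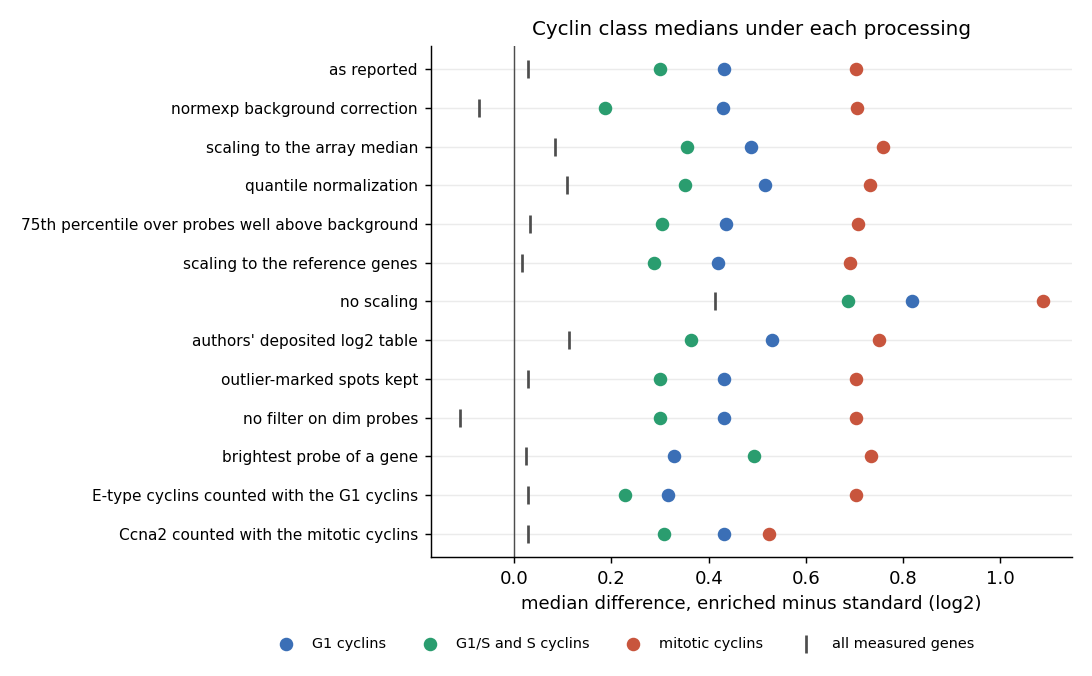
Median difference (log2, horizontal axis) of each cyclin class, and of all measured genes (tick), under the processing reported and each alternative. The mitotic class lies highest in each row, and the G1/S and S class lies above the G1 class with the brightest probe alone.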

How the data were processed

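Total RNA of 2 tumour pools was labelled with Cy3 and hybridised to 1 whole mouse genome array each, on 1 slide. The deposited scanner files hold a linear intensity per spot made with Feature Extraction, version 10.7.1.1, as the submitters' processing notes state, with spatial and multiplicative detrending switched on, per the file headers. A deposited log2 table, whose columns had medians of 8.54 (standard) and 8.56 (enriched), served as an alternative. It followed the scanner values in scale and direction, but its scaling and centring are not given in the sources used here.

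Log2 processed intensities were reduced by the 75th percentile of each array (753 and 984 before the logarithm). Control spots and spots marked as outliers were left out, spots of a probe and probes of a gene were averaged, and 30298 of 41174 probes well above background on both arrays were used. Symbols came from the RefSeq accession (GRCm38.p6) for 22951 probes, otherwise from the file's name, updated where it was a synonym of 1 gene. Fold counts use 2-fold. The steps were tested on simulated data, a copy of the standard array with known shifts and small spot noise added. That test does not cover dim probes or probes of a gene that disagree. Normexp used limma 3.58.1. Alternatives cover background, scaling, filter, probe choice and class make-up. All 10 genes are named, and in each list the 2 largest differences per direction and any at 2-fold, except 1 gene that is not reported here. Genes, lists and motifs were chosen with earlier results or sequences known.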

Additional observations from a re-analysis of the deposited data

How the results depend on the processing

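Of the 113 class values and counts recomputed under the alternatives, 102 stayed within the median SD between probes (0.18), or, for counts, within 1.5 times. Many of these values, and of those of single genes below, could not move, so the counts do not measure robustness. Naming by current symbol used the same probes, and 0 spots of these genes carried an outlier mark. Shifting a whole array to another scale leaves the differences between classes unchanged. Without scaling between arrays, which raises the median of all genes by 0.39, the class medians were 0.82 (G1), 0.69 (G1/S and S) and 1.09 (mitotic), the kinase mean was 0.86 and 3 genes passed 2-fold. With normexp the kinase mean was 0.25, the G1/S and S median 0.19, Ccne2 0.077 in place of 0.32 and Cdk2 -0.14. Of 110 values of single genes 16 moved by more than that SD: all 10 genes without scaling, Ccne2 and Cdk2 with normexp, Ccne1 and Ccne2 with the brightest probe, and Cdk2 with quantile normalization (0.59) and in the authors' deposited table (0.62). The brightest probe per gene gave 0.49 for the G1/S and S class and put it 0.16 above the G1 class. With Ccna2 among the mitotic cyclins their median was 0.52, which is 0.091 above the G1 and 0.22 above the G1/S and S class. No paired analysis was possible because each housing has 1 pooled array, and no replicate could be left out. Without the filter on dim probes the median of all genes was -0.11 and the class values were the same, since all 17 probes pass that filter. Precision is limited by the number of arrays, and for Cdk2 by signal near background.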

Other observations

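In Ccne1 and Ccne2 the brighter probe differed more, 0.49 against 0.11 and 0.60 against 0.04, and in Cdk2 by 0.41 against 0.25. In Ccnd2 the brightest probe differed least, 0.33 against 0.55 for the dimmest, and in Ccnb1 the 2 were close, 0.95 and 0.97. Over all 6917 genes with several measured probes, the brightest probe had a larger difference than the dimmest, in either direction, in 47.1%.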
